A study of Mus musculus with 6 samples.

Results

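The genes examined, 8 in all, serve water transport and vasopressin sensing in the kidney: the aquaporin genes Aqp1, Aqp2, Aqp3, Aqp4, Aqp7 and Aqp11, and the vasopressin receptor genes Avpr2 and Avpr1a. They were taken as the array probes whose RefSeq accession maps to 1 of these symbols, which gave 13 probes for 8 genes, of 23785 gene symbols on the array. All 8 genes were among the 17136 genes tested, and 12 of the 13 probes lay well above background on at least 3 of the 6 arrays.

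RNA of whole kidneys was hybridised to 1-colour Agilent arrays, 1 array per sample, with 3 samples labelled Pck1-CKO and 3 labelled wild-type (WT), all from mice aged 32 weeks on a C57BL/6J background. Pck1-CKO mice carry Pck1 flox/flox and a γGT-Cre transgene (tg/+), which directs the loss of Pck1, the cytosolic phosphoenolpyruvate carboxykinase of gluconeogenesis, to the renal proximal tubule. The WT mice were littermates matched for age and sex, and the breeding gave controls that were Pck1 flox/flox, Pck1 flox/+ or Pck1 flox/+ with γGT-Cre tg/+. Which of these each WT sample was, and whether each array came from a separate animal, the labels do not say. The p-values therefore reflect only how these samples scatter, and part of that may be technical.

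Aquaporins are membrane channels for water, and some of them also pass glycerol. In the collecting duct, vasopressin binds the V2 receptor on principal cells and raises cAMP. Protein kinase A then sends aquaporin 2 to the apical membrane and raises transcription of its gene, while aquaporins 3 and 4 let the water leave through the basolateral side. Aquaporin 1 carries the constitutive water flow of the proximal tubule and thin descending limb, and aquaporins 7 and 11 are proximal tubule proteins. The principal cells are therefore not the cells to which γGT-Cre is directed.

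All arrays were on 1 slide, with the Pck1-CKO arrays in slide row 2 and the WT arrays in slide row 1, and row and genotype therefore cannot be told apart. Between 37118 and 38708 of 56605 probes were well above background on an array, and precision is limited by there being 3 arrays a group. The single Pck1 probe read between 6.44 and 6.90 in the arrays labelled Pck1-CKO and between 5.63 and 6.32 in WT, on the log2 scale after scaling each array to its 75th percentile, and all values below are on that scale. Its log2 change was 0.56 ± 0.22 (SE, adjusted p = 0.152). The sources used here do not place this probe inside or outside the deleted segment, so it checks nothing, and every direction below is that of the arrays as labelled. All 10 listed proximal tubule markers were tested, as were all 9 of the principal cell, so the RNA held both kinds of tubule.

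Of the 8 genes, 2 rose and none fell at an adjusted p under 0.05 (limma). These were Aqp2 and Avpr2, the water channel and the receptor of the vasopressin pathway in the principal cell. Among all tested genes 8.04% passed, 743 of them (4.34%) higher and 634 (3.7%) lower, and after median scaling of the arrays 2434 were higher and 560 lower. Before adjustment 3 of the 8 genes were higher and 0 lower at p under 0.05, beside 31.2% of all tested genes in either direction. The groups did not overlap in 4 of the 8, with 3 genes higher and 1 lower, beside 38.3% of all tested genes. A further 6 genes did not pass, 4 with a positive and 2 with a negative change. The median log2 change of the 8 was 0.16, beside 0.0091 over all tested genes. In whole kidney RNA, more cells of a type and more RNA per cell cannot be told apart.

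**Figure D1:**
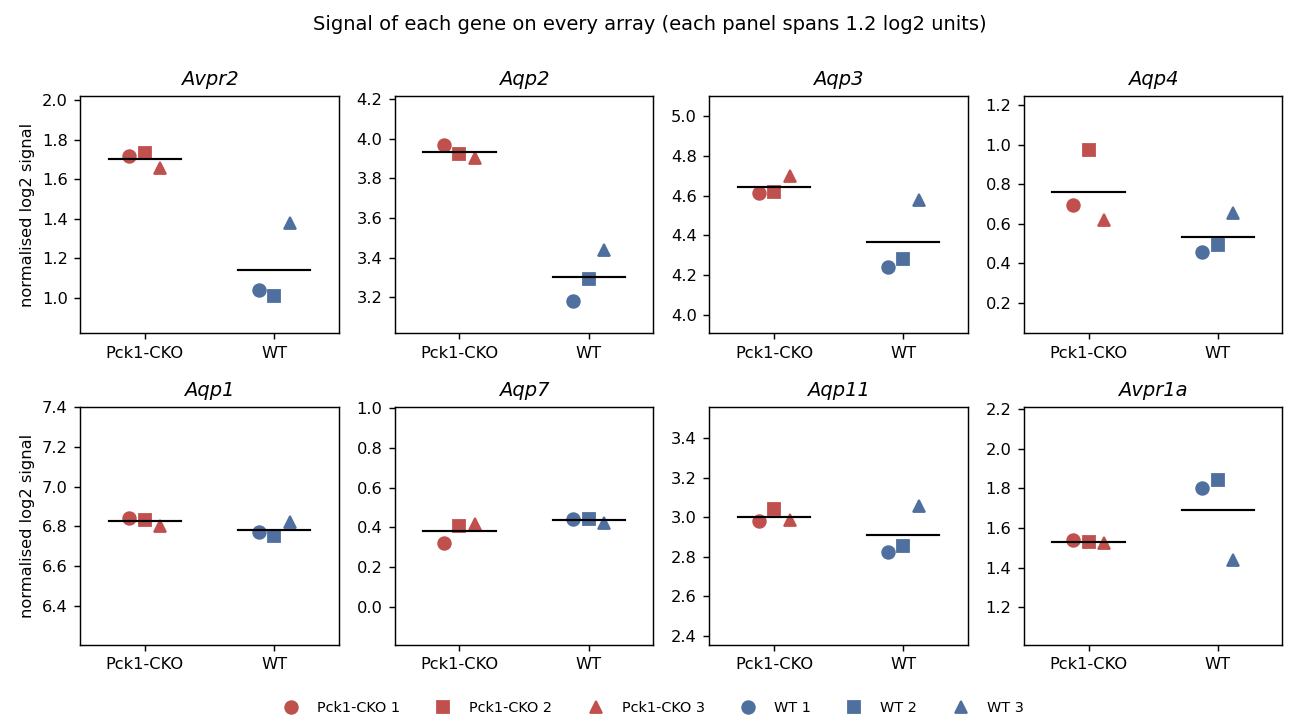
Normalised log2 signal (y axis) of the 8 genes on each array, with Pck1-CKO left of WT, 1 point per array and a bar at the group mean. Every panel spans the same log2 range. Avpr2 and Aqp2 separate the groups widely, Aqp3 narrowly, and WT 3 lies nearest the Pck1-CKO mean in every panel.

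Avpr2, which encodes the V2 receptor, had log2 signals of 1.72, 1.73 and 1.66 in the Pck1-CKO arrays, against 1.04, 1.01 and 1.38 in the WT arrays. All Pck1-CKO values were higher than all WT values, with a gap of 0.28, and WT 3 was the WT array nearest to them. Its log2 change came to 0.56 ± 0.11 (SE, n = 3 a group, adjusted p = 0.0398), 1.47-fold with a 95% interval from 1.23 to 1.77. The spread was smaller in Pck1-CKO (SD 0.040) than in WT (SD 0.21), though no test of this was made. The call did not hold on leaving out any array but WT 3. Adjusted p was 0.114 without Pck1-CKO 1, 0.142 without Pck1-CKO 2, 0.0615 without Pck1-CKO 3, 0.119 without WT 1 and 0.116 without WT 2, and 0.0237 without WT 3. The log2 change stayed between 0.49 and 0.68 in these fits. In a fit over all probes instead of 1 probe per gene the adjusted p was 0.0513.

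Aqp2, which encodes the vasopressin-regulated apical water channel, read 3.97, 3.92 and 3.90 in Pck1-CKO and 3.18, 3.29 and 3.44 in WT. The groups lay 0.47 apart at their nearest arrays, and the 3 Pck1-CKO values were close together while the WT values were spread out. Its log2 change of 0.63 ± 0.073 (SE, n = 3 per group, adjusted p = 0.0192) was the largest of the 8 and amounts to 1.55-fold, with a 95% interval from 1.37 to 1.75. Ranked by p, it stood at place 146 of 17136 genes, and Avpr2 at place 958. The call for Aqp2 did not hold without Pck1-CKO 1 (adjusted p = 0.0801), Pck1-CKO 2 (0.0898), WT 1 (0.0651) or WT 2 (0.0793), but it did without Pck1-CKO 3 (0.0272) or WT 3 (0.0267). With no filter on dim probes, which raises the number of genes tested to 23781, the adjusted p was 0.0529 for Aqp2 and 0.0895 for Avpr2.

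**Figure D2:**
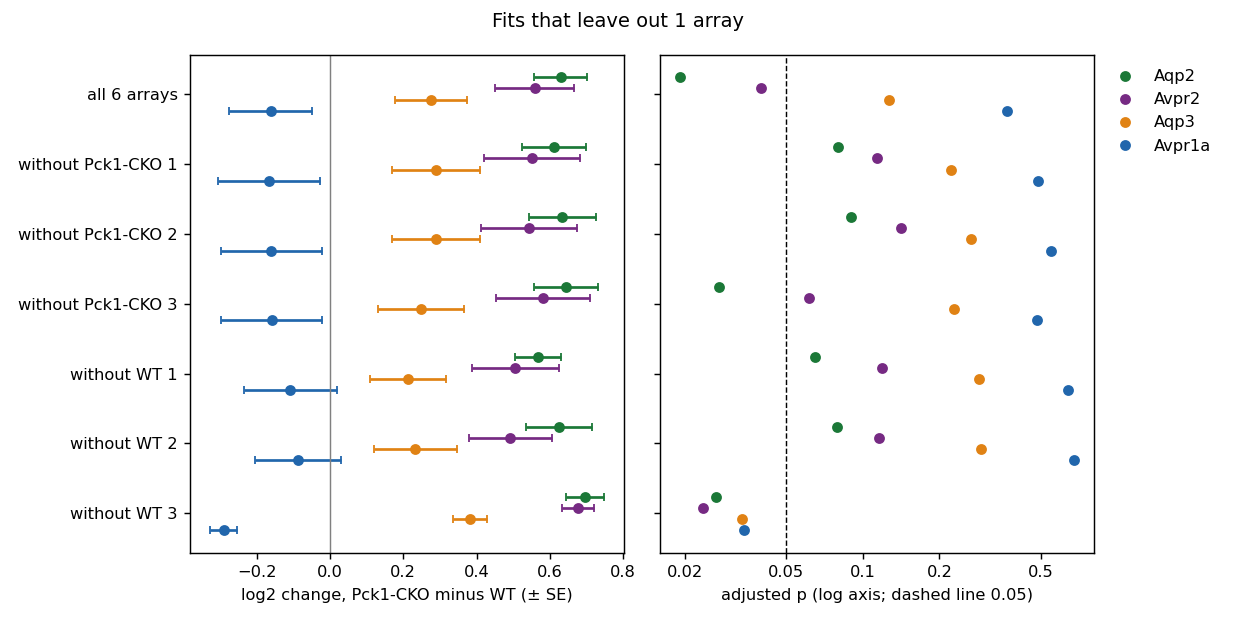
Fits on all 6 arrays and on 5 arrays for Aqp2, Avpr2, Aqp3 and Avpr1a, with the log2 change of Pck1-CKO minus WT ± SE on the left and the adjusted p on a log axis on the right. Log2 changes of Aqp2 and Avpr2 stayed above 0.49, while most of their adjusted p-values crossed 0.05. Without WT 3, the WT array nearest to Pck1-CKO in each of them, all 4 genes passed.

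The sequences before the start of these genes are shown because Aqp2 and Avpr2 were higher on the same arrays and the Aqp2 promoter is a known target of cAMP signalling. Both are the 250 bases before the annotated start, from RefSeq on GRCm38.p6, at chr15:99578806-99579055 on the plus strand for Aqp2 and chrX:73891852-73892101 on the plus strand for Avpr2. Capitals mark every match, on either strand, to the cAMP response element TGACGTCA, its half-site TGACG (which lies within the full element), the AP-1 site TGANTCA, the GATA site AGATAA, the TATA box TATAAA, the GC box GGGCGG and the tonicity element core TGGAAA.
Aqp2: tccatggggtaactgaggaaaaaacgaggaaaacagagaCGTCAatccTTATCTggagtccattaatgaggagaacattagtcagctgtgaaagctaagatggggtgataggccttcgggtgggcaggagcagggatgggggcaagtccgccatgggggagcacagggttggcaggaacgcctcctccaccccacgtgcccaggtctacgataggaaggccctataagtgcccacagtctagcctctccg
Avpr2: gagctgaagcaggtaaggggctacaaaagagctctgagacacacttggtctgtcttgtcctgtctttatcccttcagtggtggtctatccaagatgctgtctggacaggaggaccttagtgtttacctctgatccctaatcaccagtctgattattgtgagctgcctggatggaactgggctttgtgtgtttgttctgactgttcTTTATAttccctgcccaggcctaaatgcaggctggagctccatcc
The Aqp2 window held the half-site, on the opposite strand and beginning 211 bases before the start, and a GATA site on the opposite strand beginning at 202 bases. It held no match to the full element. The Avpr2 window held a single match, to TATAAA on the opposite strand, beginning at 45 bases. Over all 32851 such windows, 17.8% held the half-site, 1.55% the full element, 9.99% the GATA site and 12.4% TATAAA. Of the other genes, 5 had windows in the table, and among them the half-site was found in that of Avpr1a. These matches describe the letters of the windows and were not set against the signals.

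Aqp3, the gene of a basolateral water and glycerol channel of principal cells, read 4.62, 4.62 and 4.70 in Pck1-CKO and 4.24, 4.28 and 4.58 in WT. The groups did not overlap, but WT 3 lay 0.034 below the lowest Pck1-CKO array. The log2 change was 0.28 ± 0.098 (SE), which did not pass (adjusted p = 0.127), and its 95% interval ran from 0.033 to 0.52. Without WT 3 it was 0.38 with adjusted p = 0.0336. Without any other single array it did not pass (limma, adjusted p from 0.222 to 0.291). Aqp3 is also known from the urothelium, and none of the 7 tested urothelial markers passed, with a mean log2 signal between -1.60 and -1.41 in Pck1-CKO and between -1.69 and -1.25 in WT.

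Aqp4, whose product is the other basolateral water channel of principal cells, is covered by 4 probes, whose changes had both signs. The brightest (A_55_P2031939) read 0.69, 0.97 and 0.62 in Pck1-CKO and 0.46, 0.49 and 0.65 in WT. Here Pck1-CKO 2 stood above the rest and the groups overlapped. Its log2 change was 0.23 ± 0.11 (SE, adjusted p = 0.215). The probe A_52_P625527 changed by 0.33 ± 0.16 in the fit over all probes. The dimmer probe A_55_P2742038 went the other way, with -3.39, -3.46 and -3.39 in Pck1-CKO against -3.14, -3.11 and -3.29 in WT, and a log2 change of -0.23 ± 0.066 (adjusted p = 0.0986). It carries the same accession as the brightest probe, and none of these 3 passed. The last probe, A_55_P2742033, did not clear background on any array. With the mean of the tested probes the change of Aqp4 was 0.11.

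**Figure D3:**
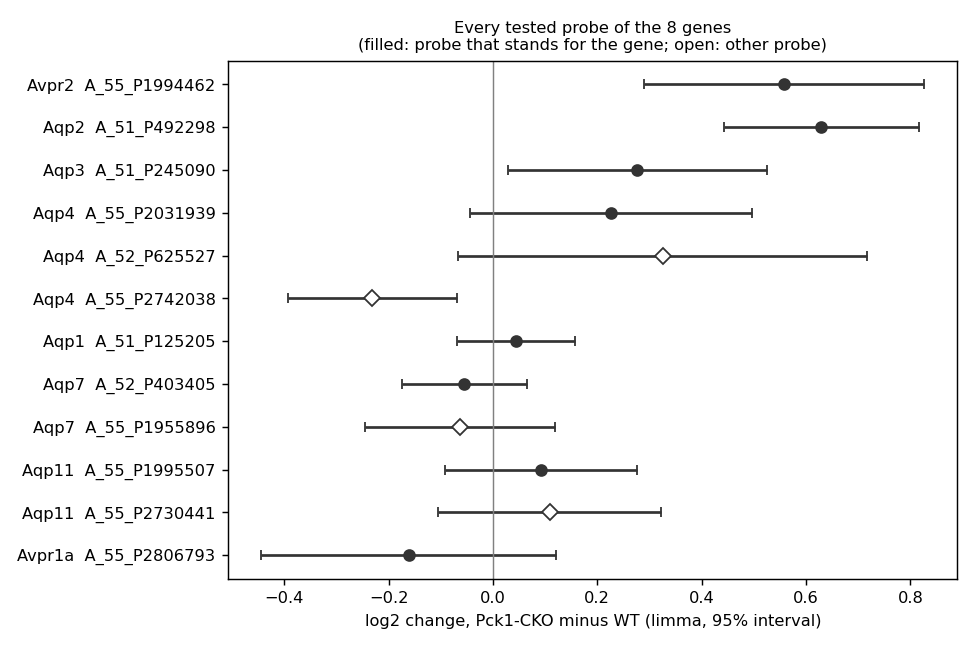
Log2 change (x axis, Pck1-CKO minus WT) of the 12 tested probes, with 95% intervals from the fit over all probes. Filled points are the probes that stand for a gene and open points are other probes of the same gene. The probes of Aqp7 and of Aqp11 lie together, while the 3 of Aqp4 lie on both sides of 0.

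The 4 collecting duct genes were also set against 9 other principal cell markers on the same arrays: the epithelial sodium channel genes Scnn1a, Scnn1b and Scnn1g, Hsd11b2, Fxyd4, Kcnj1, Gata3, Elf5 and Npnt. None of the 9 passed by limma (before adjustment, 2 higher and 0 lower at p under 0.05). Their mean log2 signal was 1.41, 1.45 and 1.41 in Pck1-CKO and 1.38, 1.39 and 1.38 in WT, and their median log2 change was 0.048. This mean joins 5 positive and 4 negative changes, from -0.26 to 0.36. Relative to this mean, Aqp2 was higher in Pck1-CKO by 0.59 and Avpr2 by 0.52. For both genes all 3 Pck1-CKO arrays lay above all 3 WT arrays (exact permutation p = 0.1, 2-sided, the smallest that 3 against 3 arrays allow). The marker mean spanned only 1.38 to 1.45, so this separation repeats that of both genes by themselves and adds no separate test. For Aqp3 the difference was 0.24 and for Aqp4 0.19 (exact permutation p = 0.2 each).

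Markers of the medulla, where much of the collecting duct lies, were higher on some of the same arrays. Of 7 tested, 2 rose and 1 fell, and the median log2 change was 0.33. Their mean log2 signal was 2.13, 2.12 and 1.95 in Pck1-CKO and 1.78, 1.79 and 1.99 in WT, so WT 3 lay above Pck1-CKO 3. Akr1b3, the aldose reductase gene of the osmotic response, rose by 0.61, whereas the urea transporter gene Slc14a1 fell by 0.37. The call for Slc14a1 did not hold after quantile normalization (adjusted p = 0.0511), after median scaling (0.0516) or as the mean of its probes (0.0588). Slc14a2, the vasopressin-responsive urea transporter gene, named after its values were seen, had a log2 change of 0.48 ± 0.11 (SE, adjusted p = 0.0532). The part of medullary content in the Aqp2 and Avpr2 results was not tested.

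Aqp1, the constitutive water channel gene of the proximal tubule and thin descending limb, read 6.84, 6.83 and 6.80 in Pck1-CKO and 6.77, 6.75 and 6.82 in WT. The groups overlapped, and the log2 change of 0.044 ± 0.040 (SE) did not pass (adjusted p = 0.481). Its 95% interval from -0.053 to 0.14 is the narrowest of the 8 and lies below the intervals of Aqp2 and Avpr2. Red cells and vascular endothelium also hold aquaporin 1. The 4 tested red cell genes had a median log2 change of 0.36, with means between 5.73 and 6.08 in Pck1-CKO and between 5.40 and 5.75 in WT. The 7 endothelial genes had a median of -0.12, with 1.83 to 1.96 in Pck1-CKO and 1.94 to 2.01 in WT. No gene of either list passed in limma (before adjustment, 3 red cell genes were higher and 2 endothelial genes lower at p under 0.05), and their part in the Aqp1 signal was not tested.

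Aqp11, an aquaporin of intracellular membranes in the proximal tubule, was measured by 2 probes that gave nearly the same change. The brighter read 2.98, 3.04 and 2.98 in Pck1-CKO and 2.82, 2.85 and 3.06 in WT. WT 3 lay above every Pck1-CKO array. The log2 change was 0.092 ± 0.072 (SE, adjusted p = 0.421), and that of the other probe was 0.11. Without WT 3 it was 0.16 (adjusted p = 0.0754), and without WT 1 it was 0.048.

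Aqp7, the gene of a water and glycerol channel of the proximal straight tubule and of fat cells, read 0.32, 0.41 and 0.41 in Pck1-CKO and 0.44, 0.44 and 0.42 in WT. The groups were apart by only 0.0079. The log2 change was -0.055 ± 0.043 (SE, adjusted p = 0.421) with a 95% interval from -0.16 to 0.051, and the other probe gave -0.063. Scaling the arrays to their median turned the sign, to 0.021. Beside this, 4 of 10 adipocyte genes rose, among them Ucp1 by 5.23 and Fabp4 by 1.25. Before adjustment 9 of the 10 were higher and 0 lower by limma at p under 0.05, and the list had a median log2 change of 2.97. Its mean log2 signal was 2.43, 2.30 and 2.95 in Pck1-CKO and -1.58, 0.56 and 0.36 in WT. Over these arrays, on which the adipocyte mean spanned -1.58 to 2.95, the brighter Aqp7 probe spanned 0.32 to 0.44. The other Aqp7 probe spanned -2.20 to -1.93. The part of fat cells in the Aqp7 signal was not tested.

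Glycerol handling was examined with Aqp3 and Aqp7 in view. Of 8 genes in this list 2 rose and 1 fell, with a median log2 change of 0.25. Lipe, which encodes hormone-sensitive lipase, rose by 0.59 and Agpat2, an acyltransferase gene of glycerolipid synthesis, by 0.52. Mgll, the monoglyceride lipase gene, fell by 0.25. After normexp background correction the log2 change of Lipe was 0.36. Lipe and Agpat2 are strongly expressed in fat, and the part of the adipocyte signal in their rise was not tested.

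Avpr1a encodes the V1a receptor, which signals through calcium and is known from vascular smooth muscle and, within the nephron, from intercalated cells. It read 1.54, 1.53 and 1.52 in Pck1-CKO and 1.80, 1.84 and 1.44 in WT. The Pck1-CKO arrays were nearly equal (SD 0.0089), and WT 3 lay below all of them while WT 1 and WT 2 lay above. The log2 change was -0.16 ± 0.11 (SE) and did not pass (adjusted p = 0.37). Without WT 3 it was -0.29 with adjusted p = 0.0343. Without any other single array it did not pass (limma, adjusted p from 0.484 to 0.676), and without WT 2 it was -0.087. Of 7 tested intercalated cell markers 3 fell, led by the anion exchanger gene Slc4a1 at -0.88 and the proton pump subunit gene Atp6v0d2 at -0.37, with a median of -0.17. Their mean log2 signal ran from 1.88 to 1.92 in Pck1-CKO and from 2.06 to 2.17 in WT. It joins 6 negative changes and 1 positive. The positive change was that of Foxi1, named after its value was seen, at 0.27 ± 0.15 (SE, adjusted p = 0.263). Of 6 smooth muscle markers 1 rose, Tagln by 0.27, with a median of 0.11, and after quantile normalization Tagln no longer passed (adjusted p = 0.0747). Of the adrenal cortex markers Cyp11a1, Cyp11b1 and Cyp11b2 did not clear background on any array, and the 3 tested had a median of -0.16 and no call in limma (1 lower at an unadjusted p under 0.05).

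The WT arrays were not equally far from Pck1-CKO. In all 8 genes WT 3 was the WT array nearest to the Pck1-CKO mean, and this includes both genes with a negative change. Over all tested genes WT 3 was nearest in 41.6%, WT 2 in 30.9% and WT 1 in 27.6%. Without WT 3, 4 of the 8 genes passed, namely Aqp2, Aqp3 and Avpr2 higher and Avpr1a lower. Leaving out the nearest WT array widened the difference in all 8 genes. The added calls of Aqp3 and Avpr1a therefore follow in part from which array was left out. Without Pck1-CKO 3 only Aqp2 passed, and without any 1 of the remaining 4 arrays none of the 8 did. In those last 4 fits few genes of any kind passed, 16 to 39 higher and 9 to 31 lower. With all arrays the counts were 743 and 634. The loss of calls in those 4 fits was therefore not particular to the 8 genes. Dropping WT 3 gave 779 higher and 589 lower genes, and dropping Pck1-CKO 3 gave 725 and 806.

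By Pearson correlation over the 6 arrays, the genes whose signals ran most like those of Aqp2 were Serpina3n, Hsd17b12 (r = 0.9976) and Nos3 (r = 0.9975). Serpina3n was well above background on all 3 Pck1-CKO arrays and on no WT array, so its WT values are only bounds and its place in this order rests on values below background. For Avpr2 they were Map3k15 (r = 0.9997), Ints8 (0.9984) and Plekha2 (0.9969). These values describe 6 arrays in 2 groups, whose difference they include, and were picked from 17136 genes.

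Of 6 other aquaporin genes 3 could be tested, of which 1 rose and 1 fell, with a median log2 change of -0.23. Aqp6, the intracellular channel of acid-secreting intercalated cells, read 3.62, 3.54 and 3.61 in Pck1-CKO and 4.54, 4.56 and 4.50 in WT. The gap between the groups was wide against the spread within them, and the gene fell by 0.94 on the log2 scale (SE 0.043, adjusted p = 0.00366). This call held on leaving out each array in turn. The mean of the intercalated cell markers was lower on the same arrays, though not every marker was, as given above. The part of these markers in the Aqp6 result was not tested. Aqp8 rose, with -1.18, -1.10 and -1.17 in Pck1-CKO against -1.50, -1.47 and -1.77 in WT, a log2 change of 0.43 ± 0.089 (adjusted p = 0.0469). It no longer passed without Pck1-CKO 1 (adjusted p = 0.121), Pck1-CKO 2 (0.161), Pck1-CKO 3 (0.0759), WT 1 (0.11) or WT 2 (0.1). Aqp5, named after its value was seen, had a log2 change of -0.23 ± 0.18 (SE). Mip and Aqp12 did not clear background on any array, and Aqp9 cleared it on 2 of 6.

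Of the genes of vasopressin and oxytocin and their other receptors, the hormone gene Avp and the receptor gene Avpr1b did not clear background on any array. The 3 tested genes had no call in limma (0 at an unadjusted p under 0.05) and a median log2 change of -0.015. The lowest p was that of Lnpep, a membrane aminopeptidase gene that cleaves both peptides, at -0.13 ± 0.075 (SE, adjusted p = 0.28).

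Of 19 tested genes of the cascade that links the V2 receptor to its kinase, 2 rose and none fell (limma, with 5 higher and 0 lower before adjustment), and the list's median log2 change was 0.033. Prkar2b, which encodes a regulatory subunit of protein kinase A abundant in fat and brain, read 1.53, 1.39 and 1.90 in Pck1-CKO and -0.54, 0.012 and 0.081 in WT. It rose by 1.75 ± 0.21 (SE, adjusted p = 0.0209), with its lowest signal on WT 1 as for the adipocyte mean, and the part of that mean in it was not tested. Grk2, a kinase gene for active receptors, rose by 0.24 ± 0.034 (SE, adjusted p = 0.0282), with 2.10, 2.10 and 2.11 in Pck1-CKO and 1.87, 1.87 and 1.86 in WT. As the mean of its probes Grk2 had 0.20 with adjusted p = 0.0737.

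The core steps of the cascade, named for their place in it after the values were seen, had small changes that did not pass. Gnas, which encodes the stimulatory G protein, had a log2 change of 0.033 ± 0.036 (SE). Adcy6, the main adenylyl cyclase gene of the vasopressin response, had 0.092 ± 0.036 (SE), with 1.79, 1.78 and 1.76 in Pck1-CKO and 1.67, 1.68 and 1.70 in WT. The groups of Adcy6 did not overlap, but its adjusted p was 0.148. Of the catalytic subunit genes of protein kinase A, Prkaca had 0.076 and Prkacb 0.0054. In this list 8 of 19 genes had every Pck1-CKO array above every WT array and none the reverse, beside 21.9% and 16.4% of all tested genes.

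**Figure D4:**
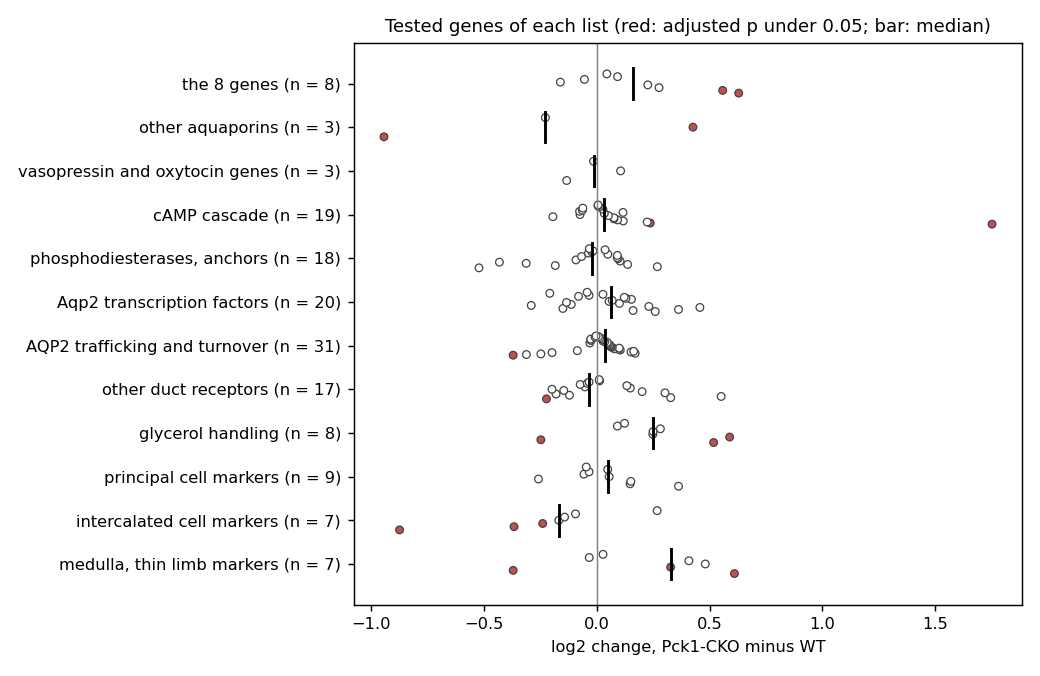
Log2 change (x axis, Pck1-CKO minus WT) of every tested gene of the 8 genes described, of the pathway lists and of the principal cell, intercalated cell and medulla markers. Red points passed at an adjusted p under 0.05 and bars are medians. Most genes of the pathway lists, 100 of 119, lie within 0.25 of 0, with Prkar2b at 1.75 and Aqp6 at -0.94 the farthest out.

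Phosphodiesterases, which break down cAMP, and the anchors of protein kinase A showed no call among 18 genes by limma (before adjustment, 1 higher and 1 lower at p under 0.05), with a median of -0.019. Pde3a had the lowest p, at -0.52 ± 0.13 (SE, adjusted p = 0.0661). After normexp background correction its log2 change was -0.25. Of 20 transcription factor genes linked to the Aqp2 gene none passed by limma (before adjustment, 5 higher and 1 lower at p under 0.05), with a median of 0.061. Nr1h3, the liver X receptor alpha gene, had the lowest p at 0.26 ± 0.059 (SE, adjusted p = 0.0548). Creb1, the gene of the factor that binds the cAMP response element, had -0.043 ± 0.065 (SE), and it and Elf5 were named after their values were seen. Elf5, a factor of principal cells that is also in the principal cell list, had 0.36 ± 0.098 (SE, adjusted p = 0.0739).

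Among 31 genes of aquaporin 2 trafficking and turnover, 1 fell and none rose (before adjustment, 2 higher and 4 lower by limma at p under 0.05), with a median log2 change of 0.035. The gene that fell was Snap23, a membrane fusion gene, with 3.78, 3.77 and 3.68 in Pck1-CKO and 4.12, 4.01 and 4.22 in WT. Its log2 change was -0.37 ± 0.067 (SE, adjusted p = 0.036), and -0.25 with adjusted p = 0.0781 as the mean of its probes. Of 17 tested receptors and mediators that oppose or mimic vasopressin in the duct, 1 fell and none rose (before adjustment, 2 higher and 1 lower by limma at p under 0.05), with a median of -0.034. This was Nr3c2, the mineralocorticoid receptor gene, with 0.87, 0.86 and 0.98 in Pck1-CKO and 1.12, 1.14 and 1.12 in WT, and it fell by 0.22 ± 0.046 (SE, adjusted p = 0.0454). Nr3c2 had adjusted p = 0.0733 after normexp background correction, and -0.15 with adjusted p = 0.0898 after median scaling.

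Calls of the genes that the naming rule chose outside the 8 also changed on leaving out single arrays, as did the calls over all tested genes. Counting the genes most like Aqp2, 23 of the chosen genes passed, among them Serpina3n, which entered the test only through the Pck1-CKO arrays. Requiring signal above background on all 6 arrays left it out, and the other 22 still passed. Of the 23, 22 no longer passed without Pck1-CKO 1, 22 without Pck1-CKO 2, 6 without Pck1-CKO 3, 20 without WT 1, 22 without WT 2 and 4 without WT 3. None changed sign in these fits. With no filter on dim probes 18 of the 23 no longer passed, and with the replicate block none of the 23 passed.

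Remaining cell type markers gave the setting of these values. Of 10 proximal tubule markers none passed by limma (before adjustment, 1 higher and 1 lower at p under 0.05), with a median log2 change of -0.0015. Of 6 genes of the thick ascending limb and distal convoluted tubule, the claudin gene Cldn16 rose by 0.31 and Slc12a3, the gene of the thiazide-sensitive transporter, fell by 0.43, with a median of 0.0066. Cldn16 passed in no limma fit that left out 1 array (adjusted p from 0.065 to 0.148). Among the podocyte genes, which had a median of -0.23, the actin-binding protein gene Synpo fell by 0.23. Synpo no longer passed after median scaling (adjusted p = 0.057) or as the mean of its probes, where it had -0.10 (adjusted p = 0.249). Of 6 macrophage genes none passed by limma (before adjustment, 1 higher and 2 lower at p under 0.05), with a median of 0.023. The urothelial list had a median of -0.071 and 1 gene higher at an unadjusted p under 0.05.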

How the data were processed

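The deposited scanner files hold intensity values in linear units from Agilent Feature Extraction 10.7.1.1, and the processed signal was background-subtracted by the authors' software, per the file headers. Values in the deposited matrix are a linear ratio to 1 factor per array, set by the authors. Each equals a probe's mean processed signal over that factor within rounding, and the medians of its columns lay between 0.098 and 0.105. Spots flagged as outliers were left out (46 to 94 per array), spots of 1 probe were averaged as log2 signals, and the 75th percentile of the array was subtracted. Probes were named by unversioned RefSeq accession (34675 of 56605 probes) from a GRCm38.p6 table, while the array design names another build, so no coordinates are given beyond those of the promoter windows. A gene was represented by its brightest probe, of those that cleared background (the scanner's well-above-background flag) on 3 or more of 6 arrays, which gave 17136 genes. Signals of different probes are not on 1 scale.

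The test was a 2-sided limma fit (lmFit, then eBayes; limma 3.58.1, R 4.3.3) with genotype as its only term. P-values were adjusted over all genes by Benjamini-Hochberg, with a threshold of 0.05. The fit was tried on simulated data with independent normal noise for each gene. Such data hold no differences shared by many genes of an array, so this does not test the calls. Named genes were the 8 genes; of each of 8 pathway lists, up to 3 that passed or else the 1 with the lowest p; of each of 13 marker lists, up to 2 that passed; and the 3 most correlated with Aqp2 and with Avpr2, predicted genes and clones left out. Genes named beyond this rule are marked, and 1 gene that the rule chose is not reported here. The genes and lists were chosen with earlier results of these data known. Slide could not serve as a block, since all arrays shared it.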

Additional observations from a re-analysis of the deposited data

How the results depend on the processing

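Directions of the 8 genes held under all alternatives run except that of Aqp7, which was 0.021 after median scaling. Median scaling also gave 2434 higher genes, against 743 in the fit as reported, beside 560 and 634 lower genes, and moved the median of all genes to 0.085. Trend and robust variance gave 1682 higher and 1149 lower genes and array weights 3285 and 2614. With array weights 5 of the 8 genes passed, with Aqp3 at 0.33, Aqp4 at 0.38 and Avpr1a at -0.26. With no filter on dim probes 61 genes were higher, 81 lower and 0 of the 8 passed in limma, with unchanged log2 changes of 0.63 for Aqp2 and 0.56 for Avpr2. The labels do not say whether equal sample numbers pair the samples. Arrays of equal number lay in the same slide column, so the replicate block is also a block by slide column. Deviations of same-numbered arrays correlated at -0.00097, -0.115 and -0.0227, and those of other pairs between -0.0759 and 0.116. With 3 arrays a group these correlations cannot exclude a pairing. With the replicate block 3 genes were higher, 1 lower and 0 of the 8 passed in limma, with Aqp2 at 0.63 (adjusted p = 0.0769) and Avpr2 at 0.56 (0.0992). Leaving out 1 array gave 16 to 779 higher genes, 9 to 806 lower genes and 0 to 4 of the 8. Those fits ranged from 0.57 to 0.70 for Aqp2, 0.49 to 0.68 for Avpr2, 0.21 to 0.38 for Aqp3, 0.12 to 0.30 for Aqp4 and -0.29 to -0.087 for Avpr1a. The cause was not tested for any of these. More genes were tested without a filter, and fewer samples were used when 1 was left out, but the part of either was not tested. Differences relative to principal cell markers moved by less than the wider of the 2 groups' SDs in all 9 alternatives run for each of the 4 genes. That of Aqp4 was nonetheless 0.092 without Pck1-CKO 2, against 0.19 with all arrays, and that of Avpr2 was 0.64 without WT 3, against 0.52, a shift above its Pck1-CKO SD of 0.032. All probes quoted for the 8 genes, except 1 of Aqp4, were well above background.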
